A study of Mnemiopsis leidyi with 50 samples.

Results

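ML07721a, ML17746a and ML23402a are 3 of the 16548 protein models (ML2.2, a set of predicted proteins) counted in single embryos of the ctenophore *Mnemiopsis leidyi*. They were chosen by identifier, from their protein domain matches. ML07721a and ML17746a each hold an ion transport domain, and ML23402a matches the ZIP family of zinc transporters. In the study ML07721a is a colloblast candidate, a gene missing from the ctenophore genera *Beroe* and *Haeckelia*, which lack colloblasts. ML17746a and ML23402a are tentacle candidates, which *Haeckelia* has and *Beroe* lacks.

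The ion transport domain is the pore-forming, membrane-spanning part shared by the voltage-gated sodium, potassium and calcium channels and by their relatives. Such channels let cations cross the cell membrane and carry electrical and calcium signals, and which ion a given channel passes cannot be read from the domain name alone. ZIP transporters carry zinc, and in some members other metal ions, into the cytoplasm from outside the cell or from organelles. Colloblasts are the adhesive cells on the tentacles with which ctenophores catch prey. The members of both groups are known here only from domain matches, and what they do in *M. leidyi* was not analysed here.

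Each library was made from the RNA of 1 whole embryo with CEL-Seq, which reads the 3′ end of each transcript, so counts were not divided by length. The 50 embryos covered 26 time points. A single embryo stands for each time up to 12 h post fertilization (hpf), and every hour between 13 and 20 hpf has 4. The labels name no strain, genotype or treatment, so by the labels the embryos differ only in age. Levels are in CPM, the count scaled by the total over all models in that embryo to 1000000 counts, and the whole series is compared as the late window of 12–20 hpf (33 embryos) against the early window of 1–9 hpf (14 embryos).

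Totals ran from 18731 to 2079694 counts in the 49 embryos at 1–20 hpf, with a median of 842919. The embryo at 0 hpf had 1119 counts in all, none of them for the 3 models, and was left out. The embryos fell into 2 groups, called library groups here, by the share of reads that HTSeq called ambiguous. The labels name no such groups. In the first group (19 embryos, at 1–12 hpf with 1 embryo each at 13 and 20 hpf) this share was 3.2–4.5%, and in the second (30 embryos, at 13–20 hpf) it was 0.7–2.0%. The groups also differed in reads not aligned (45.6–50.7% in the first, 55.4–78.4% in the second) and in reads counted (30.2–33.8% and 10.2–22.8%). The first group holds every early embryo and only 3 late ones, so in the window comparison the library group and the age are largely the same split. Of the 49 embryos, 4 were shallow, with a total more than 3 times below the median: 1 at 5.5 hpf, 1 at 15 hpf and 2 at 19 hpf. As whole embryos were used, more cells of a type and more RNA per cell cannot be told apart.

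ML17746a and ML23402a were low in every early embryo, at most 7.70 and 8.78 CPM. ML07721a was at most 7.22 CPM in 11 of the 14 early embryos and reached 22.7, 50.0 and 42.7 CPM at 7.5, 8 and 9 hpf. From 13 hpf on all 3 models were above these levels in most embryos of the second library group. ML07721a averaged 117.3 ± 85.7 CPM at 12–20 hpf (SD, n = 33) and 9.40 ± 16.8 CPM at 1–9 hpf (SD, n = 14). ML17746a averaged 61.2 ± 35.0 CPM at 12–20 hpf and 1.69 ± 2.57 CPM at 1–9 hpf. ML23402a averaged 33.3 ± 19.1 CPM at 12–20 hpf and 0.921 ± 2.34 CPM at 1–9 hpf.

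**Figure D1:**
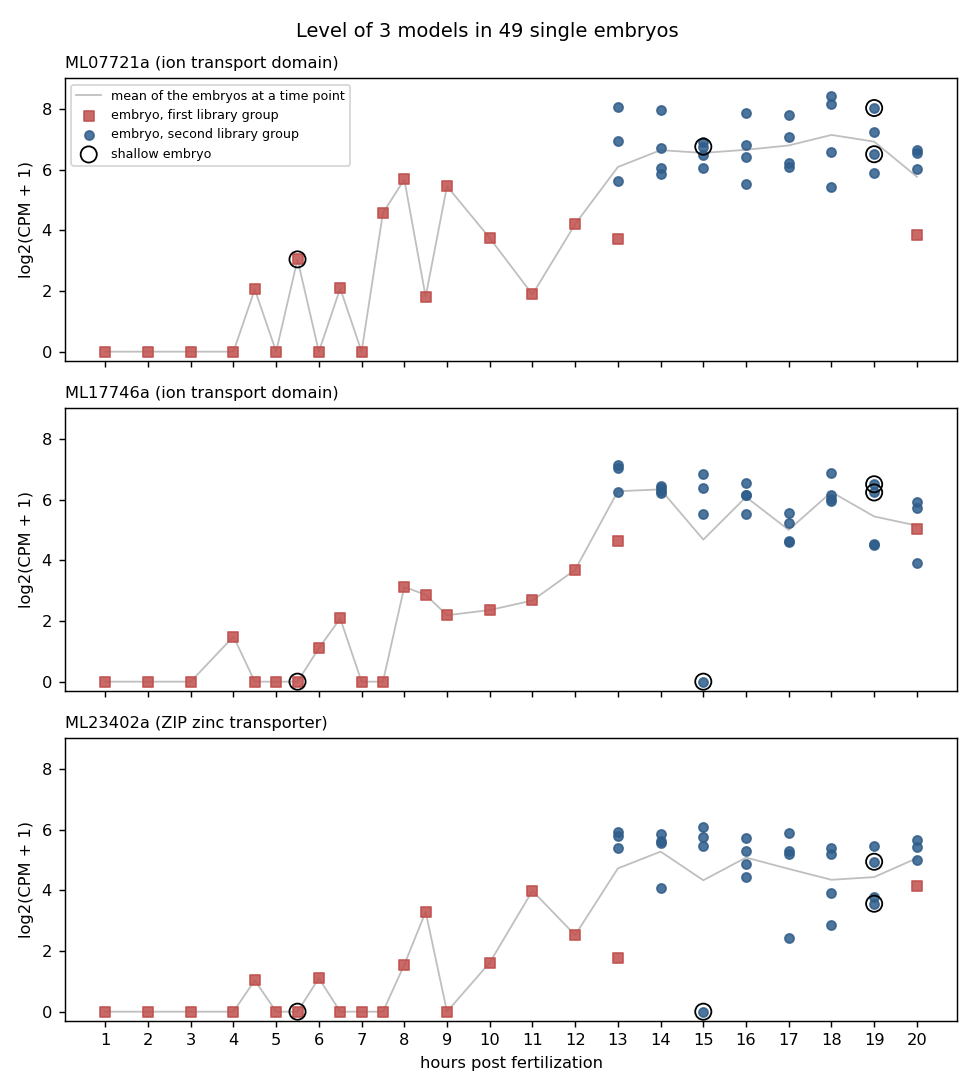
Level of ML07721a, ML17746a and ML23402a as log2(CPM + 1) in each of 49 embryos (points) against hours post fertilization, with squares for the first library group, circles for the second, a ring around shallow embryos and a line through the mean of each time point. All 3 models have 0 counts in the embryos at 1, 2 and 3 hpf, and at 13 hpf the square of the first library group lies below the 3 circles in each panel.

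ML07721a, the ion channel candidate of colloblasts, had no count in 7 of the 14 early embryos. Over the 8 embryos at 1–6 hpf it had 4 counts among 5614911, 3 of them in the embryo at 4.5 hpf and 1 in the shallow embryo at 5.5 hpf. The 6 embryos at 6.5–9 hpf followed with 3.24 CPM at 6.5 hpf, 0 at 7 hpf, 22.7 at 7.5 hpf, 50.0 at 8 hpf, 2.51 at 8.5 hpf and 42.7 at 9 hpf. The model thus had 20 CPM or more in 3 of these 6 embryos and under 4 CPM in the others.

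The intervals for counting error at 8, 8.5 and 9 hpf left that gap open if each count stands for 1 molecule, which the sources do not settle. The 95% interval (exact binomial, counting error only) was 32.7–73.3 CPM at 8 hpf, 0.304–9.06 CPM at 8.5 hpf and 29.9–59.1 CPM at 9 hpf. Of the 3230 models with at least 20 CPM at both 8 and 9 hpf, 17 (0.526%) were more than 4-fold lower at 8.5 hpf than at each of them, ML07721a included, a count chosen after these values were seen. With 1 embryo at each of these times, a change with time and a difference between embryos cannot be told apart.

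At 10, 11 and 12 hpf ML07721a had 12.4, 2.69 and 17.4 CPM, below the levels at 8 and 9 hpf. Across the steps within the first library group it rose early and did not pass later. The log2 fold change was 4.68 (SE 0.99, adjusted p = 0.00107) at 6.5–9 hpf (6 embryos) against 1–6 hpf (8 embryos) and −0.69 (SE 0.90, adjusted p = 0.710) at 10–13 hpf (4 embryos) against 6.5–9 hpf, by edgeR's quasi-likelihood test with Benjamini-Hochberg adjustment, as for every adjusted p of a fold change here. Of the 5640 models tested, 21.5% rose at the first of these steps, 5.87% rose at the second and 3.72% fell there. Without the embryo at 7.5, 8 or 9 hpf ML07721a lay under the count filter. In fits without the filter, chosen after seeing the data, it passed the first step without each embryo in turn, with 4.14 (adjusted p = 0.000845) without 8 hpf as the lowest value.

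From 13 hpf on, ML07721a had counts in every embryo. At 13 hpf it had 12.1, 122.0, 48.6 and 263.8 CPM, the first of these in the embryo of the first library group. At 14 hpf it had 64.9, 246.5, 102.4 and 57.2 CPM, and at 15 hpf 65.4, 88.9, 106.8 and 117.6 CPM, where 106.8 CPM stands for 2 counts in the shallow embryo. Embryos of the same hour thus differed by several fold.

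The later hours had the same wide spread. At 16 hpf the 4 embryos had 44.6, 233.2, 84.4 and 110.4 CPM, and at 17 hpf 222.9, 132.1, 66.8 and 73.7 CPM. At 18 hpf they had 285.2, 93.5, 342.1 and 41.5 CPM, so that the highest and the lowest value of the second library group at any hour were found in embryos of 1 hour. The embryo with 342.1 CPM had 78.4% of its reads not aligned, against 60.0, 57.9 and 60.1% in the others of that hour. At 19 hpf they had 89.7, 58.7, 259.6 and 150.4 CPM, and at 20 hpf 13.2, 99.8, 63.9 and 92.3 CPM, the first of these in the first library group. The embryo with 259.6 CPM was shallow and had 74.3% of its reads not aligned. Whether this share bears on the levels was not tested.

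The spread between embryos of an hour was estimated as the biological coefficient of variation (the part of the spread beyond counting error) in the 30 embryos of the second library group. It was 0.522 for ML07721a, above 96.3% of the 894 models of similar abundance, whose median was 0.280. It was 0.468 for ML23402a (above 92.1%, median of similar models 0.328) and 0.344 for ML17746a (above 71.4%, median 0.304). These are positions among models and were not tested. The embryos with the largest share of reads not aligned were kept in these estimates.

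ML17746a, the ion channel candidate of tentacles, had no count in 8 of the 14 early embryos and 17 counts in all of them together. From 6.5 hpf it had 3.24, 0, 0, 7.70, 6.27 and 3.56 CPM at 6.5, 7, 7.5, 8, 8.5 and 9 hpf. It had 4.13, 5.38 and 11.9 CPM at 10, 11 and 12 hpf, where every embryo had a count. Unlike ML07721a at 8 and 9 hpf, it reached 20 CPM in no embryo before 13 hpf.

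The replicated hours began with high values of ML17746a. It had 24.1 CPM in the embryo of the first library group and 140.5, 75.8 and 129.9 CPM in the others at 13 hpf, and 76.9, 83.2, 86.1 and 73.2 CPM at 14 hpf. At 15 hpf it had 44.7, 81.6 and 113.1 CPM beside the shallow embryo, whose 0 of 18731 counts allows up to 160.2 CPM. At 16 hpf it had 91.7, 69.2, 45.0 and 69.5 CPM.

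At 17 hpf all 4 embryos were low in ML17746a, with 23.2, 45.6, 36.2 and 24.0 CPM. At 18 hpf all 4 lay above them, with 116.9, 63.1, 61.5 and 69.6 CPM, an order whose share over all models was not counted. At 19 hpf it had 89.7 and 74.2 CPM in the 2 shallow embryos and 21.6 and 22.2 CPM in the 2 deeper ones. At 20 hpf it had 31.3 CPM in the embryo of the first library group and 59.9, 51.4 and 14.0 CPM in the others.

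ML23402a, the ZIP transporter, had no count in 10 of the 14 early embryos and 10 counts in all of them together, 7 of which came from the embryo at 8.5 hpf (8.78 CPM). That was the embryo in which ML07721a was low between 2 high neighbours. ML23402a had 2.06, 14.8 and 4.74 CPM at 10, 11 and 12 hpf.

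From 13 hpf ML23402a stayed under 70 CPM in every embryo. It had 2.41 CPM in the embryo of the first library group and 54.6, 41.5 and 58.9 CPM in the others at 13 hpf, 56.4, 45.8, 48.1 and 16.0 CPM at 14 hpf, and 66.5, 53.5 and 43.4 CPM with 0 in the shallow embryo at 15 hpf. It had 20.6, 28.4, 51.4 and 38.1 CPM at 16 hpf and 57.9, 38.4, 4.38 and 35.9 CPM at 17 hpf. It had 14.2, 6.31, 40.6 and 35.9 CPM at 18 hpf, and 10.8, 43.3, 29.7 and 12.7 CPM at 19 hpf. At 20 hpf it had 16.5 CPM in the embryo of the first library group and 42.4, 49.9 and 30.8 CPM in the others, so the embryos of the second group lay there within their range at 13 and 14 hpf.

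At 6.5–9 against 1–6 hpf ML17746a and ML23402a lay under the filter. Without it, where 13.2% of models rose, ML17746a rose by 2.92 (SE 0.95, adjusted p = 0.0261), while ML23402a had a log2 fold change of 2.11 (SE 1.07, adjusted p = 0.172). At 10–13 against 6.5–9 hpf neither passed, with 1.59 (SE 0.84, adjusted p = 0.294) for ML17746a and 1.72 (SE 1.02, adjusted p = 0.354) for ML23402a. These fits rest on 2 counts of each model at 1–6 hpf. ML17746a no longer passed the first step when the embryo at 1 hpf (adjusted p = 0.0559), 3 hpf (0.0513), 8 hpf (0.0646) or 8.5 hpf (0.0721) was left out. Without the embryo at 8.5 hpf the log2 fold change of ML23402a was −0.04 at the first step (adjusted p = 1) and 3.88 at the second, where it then passed (adjusted p = 0.0473).

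The first question was whether each model was higher in the late window, in which the tentacles form, than in the early one. ML07721a rose by a log2 fold change of 3.41 (SE 0.54, adjusted p = 1.7e-07), ML17746a by 4.93 (SE 0.44, adjusted p = 2.93e-14) and ML23402a by 4.79 (SE 0.51, adjusted p = 1.02e-11). Of the 6852 models tested 44.5% rose, so a rise between these windows is common, and the median log2 fold change over all models was 0.27. The 3 models were low in most early embryos and reached the count filter through their late levels. That largely fixed the direction of their change, so their folds are not ranked against the other models. The study named both candidate sets by gene loss among species, which does not use these counts.

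The windows overlapped in every model. For ML07721a the highest early value was 50.0 CPM at 8 hpf, and 27 of the 33 late embryos lay above it. For ML17746a it was 7.70 CPM, also at 8 hpf, and 32 of 33 late embryos lay above, the exception being the shallow embryo at 15 hpf. For ML23402a it was 8.78 CPM at 8.5 hpf, and 28 of 33 late embryos lay above.

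The counts differed by library group. Of the 3 late embryos of the first group, 0 exceeded the highest early value of ML07721a, 3 did so for ML17746a and 1 for ML23402a. Of the 30 late embryos of the second group, 27 exceeded it for ML07721a, 29 for ML17746a and 27 for ML23402a. Neither these counts nor those over both groups were made for all models, so they do not set the 3 models apart.

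When the fit held a term for the library group, the late to early fold of ML07721a was 0.69 on the log2 scale (SE 0.90, adjusted p = 0.571), that of ML17746a 3.67 (SE 0.63, adjusted p = 5.25e-06) and that of ML23402a 2.94 (SE 0.80, adjusted p = 0.00277). In that fit 25.1% of the models rose. Within the first group alone, 3 late against 14 early embryos, 13.3% of models rose and ML07721a had a log2 fold change of 0.71 (SE 1.33, adjusted p = 0.733). ML17746a and ML23402a did not reach the count filter there. Without the filter, a fit in which 13.7% of models rose, ML17746a rose by 3.62 (SE 0.87, adjusted p = 0.00519) and ML23402a had a log2 fold change of 2.87 (SE 1.02, adjusted p = 0.0514).

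The fits that separate the groups rest on the 3 late embryos of the first group, whose levels in CPM are thus no separate evidence. ML07721a had 14.2 ± 2.81 CPM in them, with 17.4 at 12 hpf, 12.1 at 13 hpf and 13.2 at 20 hpf, against 9.40 ± 16.8 CPM in the early embryos. ML17746a had 22.4 ± 9.84 CPM, with all 3 embryos above every early one, an order whose share over all models was not counted. ML23402a had 7.88 ± 7.54 CPM.

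**Figure D2:**
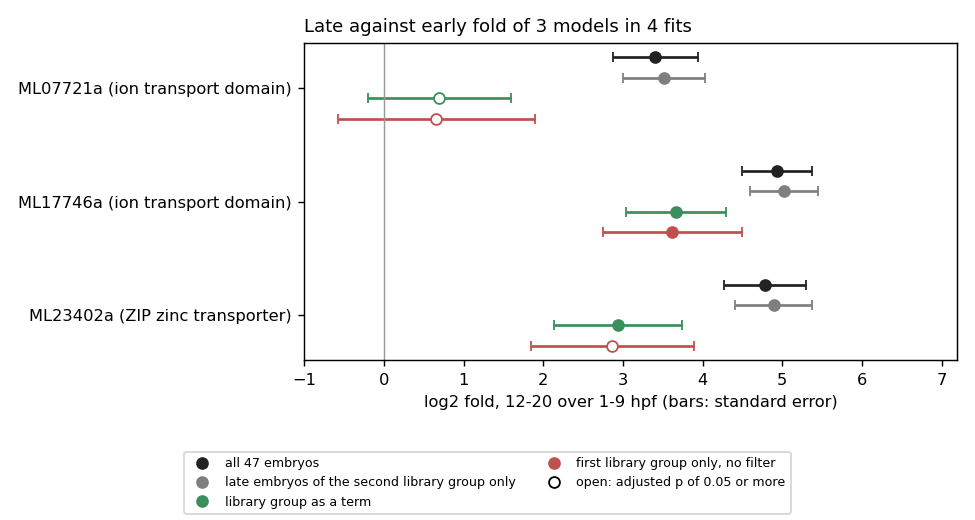
Log2 fold change of 12–20 hpf over 1–9 hpf (x axis, with bars for the standard error) of the 3 models in 4 fits, from the top of each set: all 47 embryos, the second library group alone as late embryos, a term for the library group, and the first library group alone without a count filter. Open points have an adjusted p of 0.05 or more, which holds for ML07721a in both fits that separate the groups (0.69 and 0.66) and for ML23402a in the last one.

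A direct comparison of the groups was possible at 13 and 20 hpf, the hours at which both are present, with 1 embryo of the first and 3 of the second group at each. It was added after the data were seen. ML07721a was lower in the first group, by a log2 fold change of −2.83 (SE 0.66, adjusted p = 0.0217). Its values were 12.1 CPM in the first group against 144.8 ± 109.4 CPM in the second at 13 hpf, and 13.2 CPM against 85.3 ± 18.9 CPM at 20 hpf. Of the 6605 models tested 2.57% were called lower in the first group, and 362 were called in either direction. By the same edgeR test 1478 models had an unadjusted p under 0.05. With 1 embryo against 3 at each hour many differences can be missed, so the share called does not show that they are rare. The call rests on both embryos of the first group: adjusted p was 0.205 without that at 13 hpf and 0.0937 without that at 20 hpf.

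The other models did not pass that comparison. ML17746a had a log2 fold change of −1.01 (SE 0.54, adjusted p = 0.283), with 24.1 CPM in the first group against 115.4 ± 34.7 CPM in the second at 13 hpf and 31.3 CPM against 41.8 ± 24.4 CPM at 20 hpf. ML23402a had −1.93 (SE 0.59, adjusted p = 0.0688), with 2.41 CPM against 51.7 ± 9.07 CPM at 13 hpf and 16.5 CPM against 41.0 ± 9.64 CPM at 20 hpf. Its adjusted p passed with library size alone (0.0450), with DESeq2 (0.0378) and without the filter (0.0398), fits in which 3.94%, 4.09% and 2.55% of models were lower in the first group, and also without the embryo of the first group at 20 hpf (0.0441, log2 fold change −4.14). In CPM the embryo of the first group lay below all 3 embryos of the second at each hour for ML07721a and ML23402a. The share of all models with this order was not counted, so it does not set these 2 apart.

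**Figure D3:**
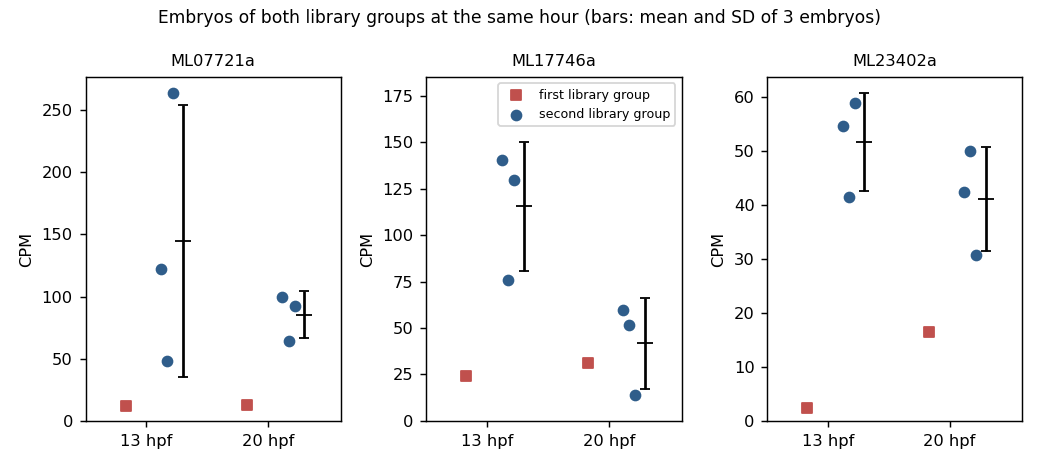
CPM of the 3 models at 13 and 20 hpf in single embryos of the first library group (red squares, left at each hour) and the second (blue circles), with the mean and SD of the 3 embryos of the second group as bars. ML07721a has 12.1 and 13.2 CPM in the first group, and every embryo of the second group has 48.6 CPM or more.

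The next question was whether the models changed while the tentacles grow, from 13 to 20 hpf. None of the 3 passed the test over the 8 hours in all 32 embryos (ML07721a adjusted p = 0.854, ML17746a 0.289, ML23402a 0.905), in which 3.53% of 8374 models were called. On simulated counts this test recovered 55.5% of 4-fold changes placed in a single hour in models picked at random. Changes of that kind can thus be missed, and changes over several hours were not simulated. ML17746a passed when the 3 shallow embryos were left out (adjusted p = 0.0431, where 3.42% of models were called). In the fit of all 32 embryos the hours spanned 1.44 on the log2 scale for ML17746a, 1.40 for ML07721a and 1.13 for ML23402a. The median over all models, of any abundance, was 1.12. The spans were not compared with those of models of similar abundance.

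Ordered by its mean, ML07721a ran from 190.6 ± 145.5 CPM at 18 hpf through 139.6 at 19, 123.9 at 17, 118.1 at 16, 117.7 at 14, 111.6 at 13 and 94.7 at 15 hpf to 67.3 ± 39.3 CPM at 20 hpf (SD, n = 4 each). Its mean at 18 hpf includes the embryo with 78.4% of its reads not aligned. ML17746a ran from 92.6 ± 53.7 CPM at 13 hpf through 79.8 at 14, 77.8 at 18, 68.8 at 16, 59.8 at 15, 51.9 at 19 and 39.2 at 20 hpf to 32.2 ± 10.7 CPM at 17 hpf. ML23402a ran from 41.6 ± 17.6 CPM at 14 hpf through 40.9 at 15, 39.3 at 13, 34.9 at 20, 34.6 at 16, 34.2 at 17 and 24.3 at 18 hpf to 24.1 ± 15.3 CPM at 19 hpf. Neighbours in these orders were not told apart (21 exact permutation tests, two-sided, smallest p = 0.286, adjusted p = 1). Neighbours were picked by their means and have the closest ones, so these tests do not show whether the hours differ.

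The orders moved with the embryos included. In the second library group alone ML07721a averaged 144.8 CPM at 13 hpf, second to 18 hpf, and 85.3 CPM at 20 hpf, still its lowest hour. ML23402a averaged 51.7 CPM at 13 hpf, then its highest hour, and 41.0 CPM at 20 hpf, and the order of ML17746a stayed as given. Without the shallow embryos ML23402a was highest at 15 hpf (54.5 CPM) and lowest at 18 hpf, ML17746a was lowest at 19 hpf (21.9 CPM, 2 embryos), and ML07721a had 104.6 CPM at 19 hpf, sixth in its order. Neighbours in these orders, again the hours with the closest means, were not told apart either (smallest p = 0.229 and 0.0857, adjusted p = 1 in both, exact permutation tests chosen after seeing the data).

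The hours were also compared in time order. Of 21 exact permutation tests of 1 hour against the hour before (two-sided, 4 embryos against 4, smallest possible p = 0.0286), 1 reached that p. ML17746a averaged 77.8 ± 26.3 CPM at 18 hpf and 32.2 ± 10.7 CPM at 17 hpf, and the embryos did not overlap. The share of all models without overlap at this step was not counted, so it does not set ML17746a apart. The adjusted p of ML17746a over the 21 tests was 0.6. With 4 embryos against 4, a single step at the smallest possible p cannot pass this adjustment, so the adjusted p does not decide here. At 17 hpf against 16 hpf (68.8 ± 19.1 CPM) its raw p was 0.0571, also with an adjusted p of 0.6 by the exact test. ML07721a and ML23402a had raw p-values of 0.257 or more at every step.

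The same held for bins of 2 hours in the second library group. From 15–16 against 13–14 hpf, 17–18 against 15–16 hpf and 19–20 against 17–18 hpf, ML07721a had log2 fold changes of −0.24, 0.57 and −0.50 (SE 0.40, 0.39 and 0.41). ML17746a had −0.33, −0.40 and −0.27 (SE 0.31, 0.31 and 0.34), and ML23402a had −0.05, −0.51 and 0.11 (SE 0.38, 0.37 and 0.41). The smallest of the 9 adjusted p-values was 0.843. Of the 7644 models tested, 0.602% rose and 0.0654% fell at the first step, 0.0654% rose and 0 fell at the second, and 0 were called at the last (512 at an unadjusted p under 0.05, and 1 called with DESeq2), so few models of any kind were called at these steps.

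The ratio of 2 models within an embryo needs no scaling by that embryo's total, and was used to ask whether the models kept 1 proportion to each other. It was taken as the log2 of the counts plus 0.5 in the 30 embryos of the second library group, so where counts are few it still moves with depth: the 2 and 0 counts of the shallow embryo at 15 hpf gave 2.32. For ML07721a to ML17746a it averaged 1.35 ± 1.10 at 17–20 hpf and 0.45 ± 0.94 at 13–16 hpf (SD, n = 15 each). The difference of 0.91 (SE 0.37) had a raw p of 0.0218 and an adjusted p of 0.0654 over 3 pairs (permutation test, two-sided). The adjusted p was 0.0202 without the 3 shallow embryos (difference 1.11), 0.0403 with a pseudocount of 1 count and 0.129 with all 32 embryos, so the call depended on these choices.

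The other ratios did not pass. ML07721a to ML23402a averaged 2.18 ± 1.37 at 17–20 hpf and 1.32 ± 0.89 at 13–16 hpf, a difference of 0.85 (SE 0.42, adjusted p = 0.0800 by permutation). ML17746a to ML23402a averaged 0.82 ± 1.54 at 17–20 hpf and 0.88 ± 0.76 at 13–16 hpf, a difference of −0.05 (SE 0.44, adjusted p = 0.905 by permutation). By hour, the mean ratio of ML07721a to ML17746a was 0.06, 0.30, 0.76 and 0.57 at 13, 14, 15 and 16 hpf and 1.81, 0.89, 1.46 and 1.22 at 17, 18, 19 and 20 hpf.

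**Figure D4:**
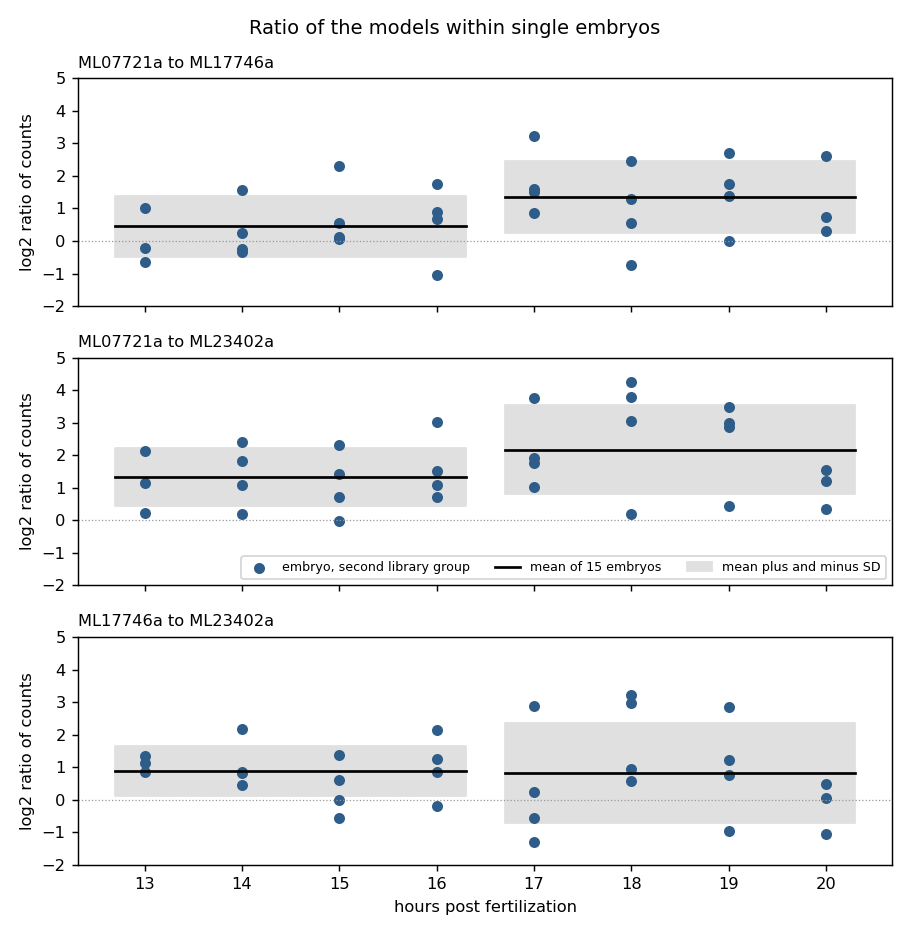
Log2 ratio of the counts of 2 models (each plus 0.5) within single embryos of the second library group against hours post fertilization, with the mean of the 15 embryos at 13–16 hpf and of the 15 at 17–20 hpf as lines and the SD as grey bands. The line of ML07721a to ML17746a lies at 0.45 at 13–16 hpf and at 1.35 at 17–20 hpf with overlapping bands, and that of ML17746a to ML23402a at 0.88 and 0.82.

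No pair of models passed a test of whether the same embryos of an hour were high in both. The deviations of log2(CPM + 1) from the hour's mean were correlated over the 30 embryos of the second group, with p-values from permutations within hours, adjusted over the 3 pairs. ML07721a and ML17746a had Pearson's r = 0.052 (p = 0.664, adjusted p = 0.664) and Spearman's rho = 0.160 (p = 0.371). ML07721a and ML23402a had r = 0.103 (p = 0.536, adjusted p = 0.664) and rho = 0.126 (p = 0.523). ML17746a and ML23402a had r = 0.623 (p = 0.198, adjusted p = 0.593) and rho = 0.198 (p = 0.343), and all 3 rho had an adjusted p of 0.523 in this permutation test.

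The largest r rested on few embryos. Without the 2 embryos farthest from the median of ML17746a, r with ML23402a was 0.129, and without the 3 shallow embryos it was −0.114. The other r without 2 embryos were 0.021 and 0.167. Depth moved with these levels, since the deviations of ML17746a and ML23402a correlated with log2 total counts (r = 0.743 and 0.655, as a description), but without the 3 shallow embryos these r were 0.123 and −0.131. For ML07721a it was −0.213 with all 30. With the total held constant, r of ML17746a and ML23402a was 0.270 (permutation p = 0.270).

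Over the whole course the tentacle candidates were most alike. Likeness was measured as Pearson's r of log2(mean CPM + 1) over the 25 time points from 1 to 20 hpf, which share library group and age and so give a description only. It was 0.933 between ML17746a and ML23402a, 0.861 between ML07721a and ML17746a and 0.771 between ML07721a and ML23402a. Among the 6851 other tested models, ML23402a ranked 34 in likeness to ML17746a, and ML17746a ranked 39 in likeness to ML23402a. ML07721a ranked 641 and 1249 in likeness to these models, and the median r over all models was 0.33 for ML17746a and 0.29 for ML23402a.

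None of the models most like each of the 3 is in the list of channel and transporter candidates used here, and no name is given for them. That list holds only candidates of the study, so any other channel or transporter would be missing from it. Whether these models are channels or transporters was not looked up. Most like ML07721a were ML12346a (r = 0.930), ML12181a (0.928), ML148936a (0.923), ML02211a (0.922) and ML07986a (0.920). Of these ML12346a averaged 101.3 ± 62.0 CPM late and 6.33 ± 7.98 CPM early. Most like ML17746a were ML022011a (r = 0.962), ML329917a (0.962), ML00705a (0.960), ML02963a (0.952) and ML109013a (0.952), of which ML02963a averaged 762.3 ± 473.7 CPM late and 3.24 ± 6.12 CPM early. Most like ML23402a were ML019226a (r = 0.970), ML435843a (0.961), ML00267a (0.959), ML14524a (0.958) and ML01798a (0.957), of which ML01798a averaged 53.5 ± 19.6 CPM late and 0.309 ± 0.636 CPM early. ML02211a, listed for ML07721a, was also close to ML17746a (r = 0.941).

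The 3 models belong to a list of 34 candidates of the study with a channel or transporter domain, 20 channels and 14 transporters. Of these, 8 passed the count filter of the window comparison and 7 of them rose, where 44.5% of all models tested rose. Apart from ML002220a, which did not pass the test, these models were low early and reached the filter through their late levels, which largely fixed the direction, so nothing about the list is read from this count. With a term for the library group 5 of 8 rose (25.1% of all models), and within the first group 1 of 3 did (13.3%). The 26 others were not tested, and 3 of them had no count at 1–20 hpf.

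No other candidate of this list with an ion transport domain reached the level of ML07721a or ML17746a. The 7 further candidates with the domain all fell below the filter, with late means of 0 to 6.15 CPM and at most 213 counts over all embryos from 1 to 20 hpf. ML07721a and ML17746a had 3377 and 1993 counts over the same embryos.

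Of the remaining list, 4 models rose in the window comparison and 1 did not pass. ML023015a, with the signature of transient receptor potential channels, a family of cation channels that in many animals respond to physical and chemical stimuli, averaged 46.4 ± 21.9 CPM late and 4.24 ± 5.38 CPM early. Its log2 fold change was 3.17 (SE 0.39, adjusted p = 5.21e-10), and within the first library group it was 3.30 (SE 0.89, adjusted p = 0.0117). It also rose at 6.5–9 against 1–6 hpf by 3.90 on the log2 scale (SE 0.74, adjusted p = 0.000432), as ML07721a did, and had 0.07 between the library groups at the same hour (SE 0.50, adjusted p = 0.953).

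The transporters among them were ML005110a, a sodium-dependent neurotransmitter symporter (log2 fold change 3.22, 18.2 ± 10.1 CPM late and 1.49 ± 2.05 CPM early), ML02091a of the major facilitator superfamily (2.94, 20.7 ± 10.1 CPM late and 2.12 ± 4.34 CPM early) and ML216914a, an ABC transporter that uses ATP to move its substrate (2.51, 11.4 ± 8.19 CPM late and 2.47 ± 3.85 CPM early). Their adjusted p-values by edgeR were 8e-10, 1.33e-07 and 9.05e-07. ML216914a no longer passed when the fit held a term for the library group (adjusted p = 0.150). ML002220a, with a match to organic solute transporter alpha, had a log2 fold change of 0.68 (SE 0.33, adjusted p = 0.0586), with 47.9 ± 79.6 CPM late and 19.7 ± 17.6 CPM early. It passed with RLE factors, with which 50.4% of models rose.

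From 13 to 20 hpf none of the 15 list models that could be tested passed the test over the hours, in which 3.53% of all models did.

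**Figure D5:**
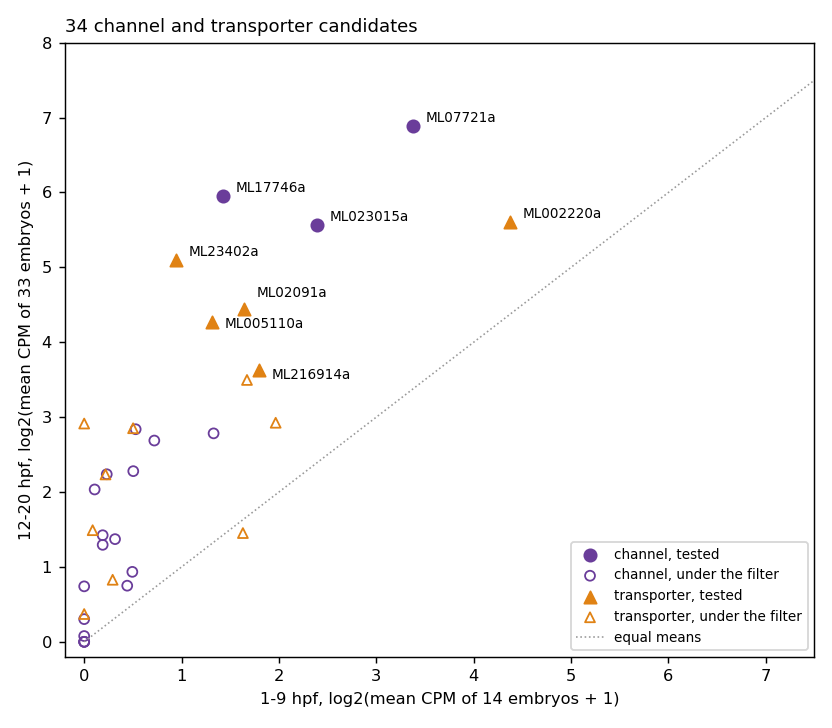
Mean level at 12–20 hpf (y axis) against mean level at 1–9 hpf (x axis), both as log2(mean CPM + 1), of the 34 channel (circles) and transporter (triangles) candidates, with filled symbols for the 8 models that passed the count filter and a dotted line of equal means. All 8 filled symbols, most of which passed the filter through their late level, lie above the line, ML07721a and ML17746a highest among the channels and ML002220a, at 47.9 and 19.7 CPM, nearest to it.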

How the data were processed

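RNA of single *M. leidyi* embryos was sequenced with CEL-Seq, whose barcodes here include unique molecular identifiers. The deposited values are raw counts per protein model that the authors made without normalization. The submitters' processing notes name CASAVA 1.8, Bowtie2 2.1.0 and HTSeq 0.5.4p3. For the genome build, the counting options and a collapse of identifiers, the answer is: not given in the sources used here. If they were not, reads are not independent molecules, and intervals and floors (3 counts of the total) cover counting error only. The classes of reads not counted (45.6–80.5% not aligned) stayed out of totals and tests. None of the models matched the reference table of gene names, so ML2.2 identifiers and the study's domain matches were used.

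Changes were tested with edgeR 4.0.16 (TMM factors, filterByExpr, quasi-likelihood F-test) over all models, with an adjusted p under 0.05. Tests ran on simulated counts first, in which 85% of 4-fold changes between the windows were recovered. In the test over the hours from 13 to 20 hpf, 55.5% of 4-fold changes placed in a single hour were recovered. Other versions were R 4.3.3, limma 3.58.1, DESeq2 1.42.0, Python 3.11.15, scipy 1.17.1, numpy 2.4.6, pandas 2.3.3 and matplotlib 3.10.9. The 3 models, the lists and the tests were chosen with earlier results of these data known. The library groups (limit of 2.5% ambiguous reads) and shallow embryos (a total more than 3 times below the median) come from such results too. Models were named by a fixed rule: the 3 models, the next 5 of the list by mean CPM that passed the filter, and the 5 most alike to each. Nothing in the labels says that embryos of an hour came from separate parents, so p-values measure the spread between these embryos only. The windows and bins pool embryos of different times, so there that spread also holds change with time. As alternatives, DESeq2, RLE factors, library size alone, no filter, other sets of embryos, other pseudocounts, the library group as a term and leaving out each embryo or time point were tried.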

Additional observations from a re-analysis of the deposited data

Results flagged for a closer look

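Among the 24 sets of 4 embryos (3 models at 8 hours), 1 held an embryo far from the others. At 18 hpf ML17746a had 116.9 CPM in 1 embryo, with 61.5, 63.1 and 69.6 CPM in the other 3, and the gap to the nearest was 0.854 of the whole range. Chance flags about 1 in 20 such sets. The embryo belongs to the second library group and was not shallow (564549 counts). It was also high in ML07721a (285.2 CPM), and had 14.2 CPM of ML23402a.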

How the results depend on the processing

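No paired analysis was possible because the replicate numbers only follow accession order. Of 1044 values set beside a main value, 959 kept their direction and side of the threshold, or were counts within 1.5 times; the others follow. Nothing here shows why they moved, and the cause was not tested.

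In the window comparison the log2 fold change of ML07721a no longer passed within the first library group (0.71; 0.66 without the filter; 0.57, 0.92 and 0.86 there without the embryo at 12, 13 or 20 hpf) or in the fit with a library group term (0.69), and that of ML23402a did not within the first group without the filter (2.87). Leaving out each time point kept all 3 models past the threshold, and without 8.5 hpf the log2 fold change of ML23402a was 6.14. The count of models called was 9900 without the filter, 2728 with the group as a term, 1480 within the first group, 2476 there without the filter, and 1025, 919 and 825 there without the embryo at 12, 13 or 20 hpf, against 5224.

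From 13 to 20 hpf the span of ML17746a was 2.02 and passed without shallow embryos, and DESeq2 called 582 models, against 296. At 15–16 against 13–14 hpf ML23402a changed sign with all 32 embryos (0.0893, or 0.0247 with the group as a term), and leaving out 1 embryo gave −0.22 to 0.0591 for it and −0.53 to 0.00563 for ML07721a. At 19–20 against 17–18 hpf leaving out 1 embryo gave −0.0555 to 0.33 for ML23402a. Counts of models called at the 3 late steps were 82, 15 and 1 with DESeq2, against 51, 5 and 0, and 25–61, 1–6 and 0–1 when 1 embryo was left out. At the second step they were 3 with library size alone, 3 without the filter, 2 without shallow embryos and 1 with all 32 embryos. At 10–13 against 6.5–9 hpf leaving out 1 embryo gave 267 to 667 calls, against 541, and without the filter 904 and 842 without the embryo at 6 or 10 hpf. Without the filter, the log2 fold change of ML17746a at 6.5–9 against 1–6 hpf no longer passed without the embryo at 1, 3, 8 or 8.5 hpf (2.70, 2.74, 2.60 and 2.62). Without 8.5 hpf that of ML23402a was −0.0433 there, and 3.88 at 10–13 against 6.5–9 hpf, where it passed.

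Between the library groups at the same hour, ML23402a passed with library size alone (−2.19), DESeq2 (−1.95) and no filter (−1.95), and leaving out 1 embryo gave −4.14 to −1.08 for it and −3.34 to −2.43 for ML07721a. The count was 599 without the filter and 110 to 385 when 1 embryo was left out, against 362. The ratio of ML07721a to ML17746a passed with a pseudocount of 1 count (0.93) and without shallow embryos (1.11). The correlation of ML17746a and ML23402a was −0.11 without shallow embryos.

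Scaling moved the split of calls. At 6.5–9 against 1–6 hpf 1213 rose and 792 fell with TMM factors, 1400 and 543 with RLE factors, and 964 and 1311 with library size alone. At 10–13 against 6.5–9 hpf these were 331 and 210, 381 and 154, and 270 and 363. Between the library groups they were 192 and 170, 200 and 171, and 90 and 260. RLE factors moved the median log2 fold change of all models in the window comparison to 0.53, and the 3 models kept their direction with each scaling.

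Depth limits the early values most: 1 count stands for 0.87 to 7.22 CPM at 1–9 hpf, so most early levels rest on few counts. The late window has 3 embryos of the first library group.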
